A study of Rattus norvegicus with 86 samples.

Results

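The genes described here encode parts of the machinery that moves cargo and fluid along microtubules and actin: axonemal dyneins and their partners, intraflagellar transport and BBSome proteins, kinesins, tubulins, the gamma-tubulin complex and myosins. They were chosen by name: a gene entered when the study's supplementary lists paired its Ensembl identifier with a symbol beginning with Dnah, Dnai, Dnal, Dync, Cfap, Ift, Bbs, Tekt, Rsph, Kif, Klc, Tub, Myo, Myh or Myl. This gave 38 of the 17250 genes measured in the prelimbic cortex (PL). The supplementary lists name genes with a *cis*-eQTL, a nearby genetic variant associated with expression, and were used only in part here, which gave 3292 genes (19.1%) a name. Of the 38 genes, 25 came from the list for the infralimbic cortex, 4 each from those for the lateral habenula and the orbitofrontal cortex, 3 from that for the nucleus accumbens core and 2, *Mylk* and *Tekt5*, from that for PL, a split that depends on which rows of each list were used. The chosen genes are therefore a sample of each family and not the whole of it. Genotypes were not analysed here. By role, 8 genes belong to the motile cilium axoneme, 5 to intraflagellar transport and the BBSome, 7 are kinesins or a kinesin light chain, 4 are tubulins, 3 belong to the gamma-tubulin complex and 8 are myosins, a myosin light chain or the light chain kinase. The remaining 3, *Myoc* (myocilin), *Myof* (myoferlin) and *Myom3* (myomesin 3), share the letters of the prefix but are not motors, so the family name does not describe them.

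The study sequenced poly(A) RNA from brain regions of Heterogeneous Stock (HS) rats, an outbred population descended from several inbred strains in which every animal has its own genotype. The rats were adults, were housed in groups and had received no drug and no behavioral testing, and both sexes had closely similar mean ages according to the study's methods. PL tissue from both hemispheres was dissected from frozen sections, so each library is a mixture of cell types. Of 86 PL samples, 80 were kept by the study and entered here, each 1 library from 1 rat, with 40 males and 40 females. The labels place the rats in batches, without saying what the rats of a batch shared. Batch 2 held 14 rats (11 males and 3 females), batch 3 held 23 (10 and 13), batch 4 held 26 (11 and 15), batch 5 held 1 female and batch 6 held 16 (8 and 8). No treatment was given, so sex and batch are the comparisons that the labels allow.

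Microtubules are polymers of alpha- and beta-tubulin that grow from rings of gamma-tubulin. Kinesins walk along them mostly outwards and dyneins inwards, and in neurons this carries vesicles along axons and dendrites. A motile cilium is built on a microtubule axoneme whose beating is driven by axonemal dyneins, and in the brain such cilia sit mainly on ependymal and choroid plexus cells. Most neurons and astrocytes carry a single immotile primary cilium, which is maintained by intraflagellar transport and by the BBSome, a coat that sorts receptors into and out of it. Myosins pull on actin: non-muscle myosin shapes cells and spines, while the contractile myosins of muscle are activated in blood vessel walls by the light chain kinase.

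RefSeq (build GRCr8) held a window from 250 bases before to 50 bases after the transcription start for 32 of the 38 genes. 2 short motifs were searched on both strands: TATAAA, the core of the TATA box, and GTTGCCAT, an arm of the X-box through which RFX factors act on cilia genes. TATAAA occurred in 8 of the 32 windows (25%) and in 14.2% of all 33469 windows, and in *Tubb2a* and *Tubb4b*, the pair of beta-tubulins that results below turn on, it lay 31 and 27 bases before the start. GTTGCCAT occurred in 2 of the 32 windows (6.25%) and in 1.3% of all windows. The 2 genes were *Dync2li1*, on the other strand, and *Kif24*, where it spanned the start. *Dnah5*, the dynein heavy chain with the largest batch difference below, had neither motif in its window. These matches are descriptions of the letters and not evidence of binding. The stretches below run 5′ to 3′ on the gene's strand from 70 bases before the start, with the motif in capitals.
Tubb2a (chr17:31002116-31002215, plus strand): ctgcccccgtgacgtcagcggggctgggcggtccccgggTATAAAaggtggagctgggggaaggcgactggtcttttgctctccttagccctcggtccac
Tubb4b (chr3:28438426-28438525, minus strand): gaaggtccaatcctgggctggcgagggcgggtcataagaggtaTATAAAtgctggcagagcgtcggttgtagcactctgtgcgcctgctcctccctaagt
Dync2li1 (chr6:15778137-15778236, minus strand): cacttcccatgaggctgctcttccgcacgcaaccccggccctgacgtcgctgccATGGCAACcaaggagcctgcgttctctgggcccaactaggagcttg
Kif24 (chr5:61423853-61423952, minus strand): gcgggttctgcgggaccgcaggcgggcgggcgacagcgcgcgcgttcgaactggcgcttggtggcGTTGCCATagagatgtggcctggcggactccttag
Dnah5 (chr2:80711116-80711215, plus strand): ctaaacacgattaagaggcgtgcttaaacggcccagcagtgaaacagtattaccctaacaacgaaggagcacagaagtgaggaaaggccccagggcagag

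All values are log2(adjusted count + 1), where the adjusted count is the read count after upper quartile scaling. The sums of adjusted counts ran from 16957388 to 20613398 per library and are set by that scaling, so they are not the sequencing depth. Between libraries, Pearson's r over genes was 0.930 to 0.982. The libraries differed in 5.8S ribosomal RNA, which had values of 8.06 to 10.93 in batch 2, 1.58 to 13.04 in batch 3, 1.58 to 4.81 in batch 4 and 1.58 to 4.86 in batch 6. It thus moved with batch, and the counts of genes that differed between batches are also given with 5.8S as a covariate. The tissue label fits the markers that had a name: *Neurod6*, a transcription factor of cortical excitatory neurons, had a mean of 11.1 in each of these batches and *Vip*, a peptide of cortical interneurons, a mean of 10.1 to 10.2.

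36 of the 38 genes had a read in every rat, beside 84.2% of all genes. The exceptions were *Cfap157*, read in 60 rats, and *Myoc*, read in 75. A mean of at least 5 was reached by 31 of the 38 genes, against 75.5% of all genes. The 7 below it were *Dnah5*, *Dnah6*, *Cfap157*, *Cfap206*, *Kif24*, *Myo7a* and *Myoc*. *Tubb2a* (lowest 11689, median 16238 and highest 22022 adjusted counts), *Klc1* (15676, 18003 and 22135) and *Myh10* (8006, 9595 and 11027) lay at the other end. Tubulin genes are near-identical in their coding parts, and the skeletal muscle myosins *Myh3* and *Myh4* are close copies as well, so reads may have been split between them and other family members, and their values are uncertain to that extent. Gene lengths were not used, so levels are not compared between genes.

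The batches were compared first. With sex in the fit, 20 of the 38 genes (52.6%) differed over batches (limma moderated F, Benjamini-Hochberg adjusted over all genes), where 59.4% of all 17250 genes did so. By role the counts were 4 of 8 axoneme genes, 4 of 5 transport and BBSome genes, 3 of 7 kinesins, 2 of 4 tubulins, 2 of 3 gamma-tubulin complex genes, 4 of 8 myosin genes and 1 of the 3 genes taken in by the prefix alone. Batch held 64.8% of the spread of *Klc1*, 53.2% of that of *Myof*, 52.3% of that of *Tubb2a* and 45.7% of that of *Dnah5*. It held 0.49% of that of *Dync2li1*. The median was 15.7% over the 38 genes and 17.2% over all genes.

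Pairs of batches showed where the difference lay. Batch 4 differed from batch 3 in 19 of the 38 genes, 10 higher and 9 lower, beside 51.7% of all genes (25.7% higher and 26% lower). Batch 6 differed from batch 3 in 22 genes, 14 higher and 8 lower, beside 49.9% of all genes (27.1% higher and 22.8% lower). It differed from batch 2 in 17, 12 higher and 5 lower, beside 38.3% (20.6% higher and 17.7% lower). Batch 4 differed from batch 2 in 13, 8 higher and 5 lower, beside 37.2% (17.6% higher and 19.6% lower). Batches 2 and 3 differed in 0 of the 38 genes by limma, with 5 at an unadjusted p under 0.05 (5.7% of all genes were called). Batches 4 and 6 differed in 2, *Cfap74* and *Ift122*, both higher in batch 6 (6.23% of all genes, 4.53% higher). *Kif7*, *Tuba8*, *Tubb6*, *Myh7b*, *Myo1d* and *Myom3* passed in a pair but not in the F-test over batches (adjusted p of 0.0567 to 0.156). The median difference over the 38 genes was 0.03 for batch 4 against 3 and 0.07 for batch 6 against 2, and 0.00038 and 0.02 over all genes. With 5.8S as a covariate, the fit called 7 of the 38 genes over batches (*Cfap69*, *Cfap74*, *Ift122*, *Klc1*, *Myof*, *Tubb6* and *Tubgcp2*) and 2632 of all genes. For batch 4 against 3 it called 0 of the 38 genes, with 8 at an unadjusted p under 0.05, and 1 of the 17250 (0.0058%). It called 4 for batch 3 against 2 (11.1% of all genes), 0 for batch 4 against 2, with 6 at an unadjusted p under 0.05 (1.08% of all genes called), 4 for batch 6 against 2 (7.86%), 4 for batch 6 against 3 (4.27%) and 3 for batch 6 against 4, *Cfap74*, *Ift122* and *Tubb6* (6.99%). Batch and 5.8S level can only in part be told apart in these rats.

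**Figure D1:**
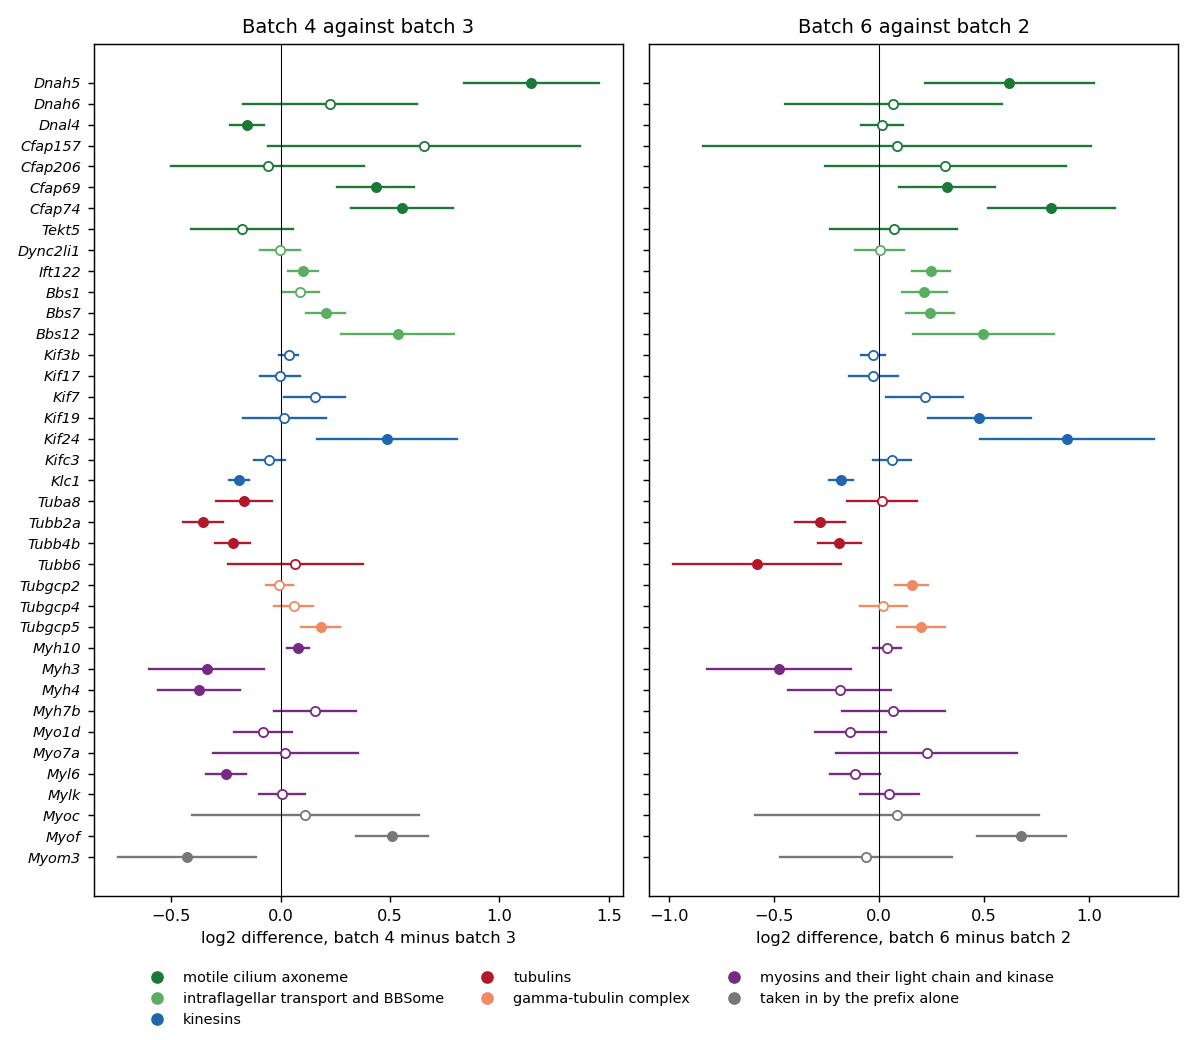
Difference in log2(adjusted count + 1) for each of the 38 genes (points, with lines for the 95% confidence interval from limma), for batch 4 minus batch 3 (left) and batch 6 minus batch 2 (right). Filled points have an adjusted p under 0.05 over all genes. Colors give the role. *Dnah5*, *Cfap74*, *Cfap69* and *Myof* lie to the right in both panels, and *Klc1*, *Tubb2a* and *Tubb4b* to the left.

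Among the axoneme genes, *Dnah5*, *Cfap74* and *Cfap69* were higher in batches 4 and 6 than in batch 3, and *Dnal4* was lower. *Dnah5* (ENSRNOG00000048363), the heavy chain of the outer dynein arm, had a lowest, median and highest value of 2.81, 4.70 and 5.49 in batch 2, 3.46, 4.25 and 5.52 in batch 3, 4.32, 5.36 and 6.13 in batch 4 and 4.00, 5.15 and 5.93 in batch 6. The batches overlapped, and the batch 4 rats lay mostly above the batch 3 rats. The means were 4.20 ± 0.54 (SD, n = 23) in batch 3 and 5.35 ± 0.45 (n = 26) in batch 4. The difference was 1.15 (SE 0.16, 2.21-fold, limma adjusted p = 3.35e-09), and against batch 2 it was 0.85 (SE 0.19, adjusted p = 0.000129). These are values of a gene with 6 to 69 adjusted counts per rat.

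*Cfap74*, a protein of the central apparatus of the axoneme, had a lowest, median and highest value of 5.04, 5.88 and 6.60 in batch 2, 5.13, 5.78 and 6.41 in batch 3, 5.32, 6.37 and 6.92 in batch 4 and 5.95, 6.88 and 7.22 in batch 6. Batch 6 was the highest, and it still overlapped each of the others. It exceeded batch 3 by 0.98 (SE 0.13, 1.98-fold, adjusted p = 5.4e-09), batch 2 by 0.82 (SE 0.15, adjusted p = 1.02e-05) and batch 4 by 0.43 (SE 0.13, adjusted p = 0.0321). *Cfap69*, which is needed for sperm flagella, had medians of 8.05, 7.73, 8.25 and 8.44 in batches 2, 3, 4 and 6. It was 0.43 (SE 0.09, adjusted p = 2.36e-05) higher in batch 4 than in batch 3. *Dnal4*, an axonemal dynein light chain, moved the other way, with 9.29 to 9.69 in batch 3 and 9.10 to 9.61 in batch 4 and a difference of -0.15 (SE 0.04, adjusted p = 0.000616). The other 4 axoneme genes passed in no pair of batches. *Dnah6*, an inner arm heavy chain, ranged from 1.00 to 4.09, *Cfap206*, a radial spoke protein, from 1.00 to 4.75, *Cfap157* from 0 to 4.25 and *Tekt5*, a filament protein of the microtubule wall, from 4.25 to 5.91 over all rats. At 1 to 16 adjusted counts per rat, *Dnah6* could show only a large change, and its interval for batch 4 against batch 3 was wide (difference 0.22, SE 0.20).

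All the genes of intraflagellar transport and the BBSome that differed between batches were higher in the later-numbered one. *Ift122*, a core protein of the complex that returns cargo to the cell body, had a lowest, median and highest value of 10.13, 10.27 and 10.56 in batch 2, 10.12, 10.26 and 10.43 in batch 3, 10.12, 10.38 and 10.57 in batch 4 and 10.35, 10.49 and 10.80 in batch 6. The batches overlapped, and the SD within a batch was 0.08 to 0.14. Batch 6 exceeded batch 4 by 0.18 (SE 0.04, adjusted p = 0.00174) and batch 3 by 0.29 (SE 0.04, adjusted p = 9.19e-09). *Bbs7*, a BBSome subunit, rose from 8.42 ± 0.12 in batch 3 (n = 23) to 8.63 ± 0.19 in batch 4 (n = 26, adjusted p = 5.32e-05). *Bbs12*, a chaperonin-like protein that assembles the BBSome, had a lowest, median and highest value of 4.58, 6.13 and 6.70 in batch 3 and 5.93, 6.46 and 7.14 in batch 4, with a difference of 0.53 (SE 0.13, adjusted p = 0.000312). *Bbs1*, another subunit, was 0.22 (SE 0.05, adjusted p = 0.000832) higher in batch 6 than in batch 2. *Dync2li1*, the light intermediate chain of the dynein that powers the return transport and a carrier of the GTTGCCAT motif above, had batch means of 8.48 to 8.49. Its largest difference between a pair of batches was 0.01 in size, with an SE of 0.05 to 0.06.

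**Figure D2:**
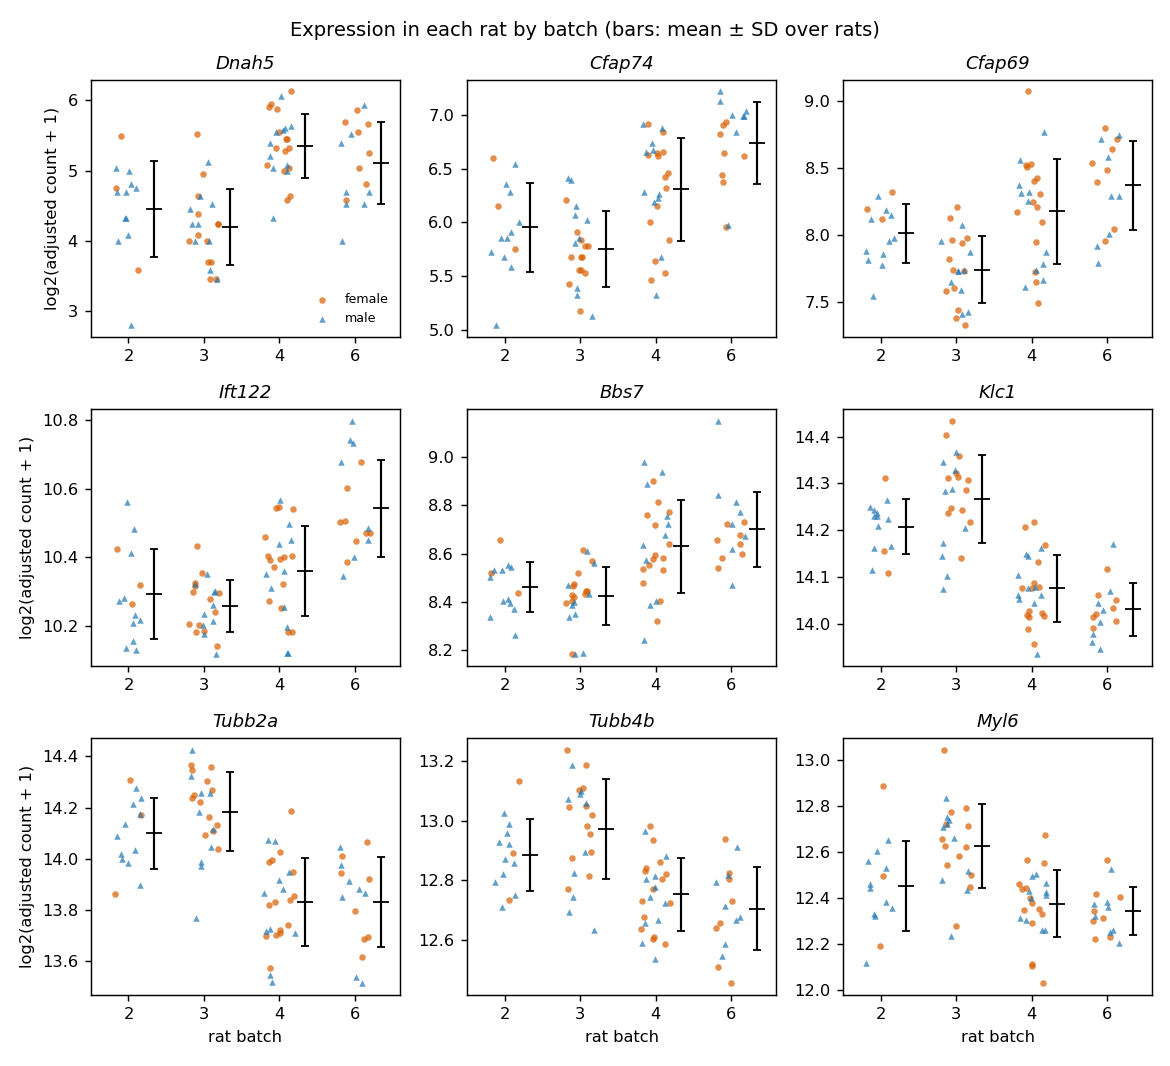
Log2(adjusted count + 1) of 9 genes in each rat of batches 2, 3, 4 and 6 (circles for females, triangles for males), with the mean and SD over rats as bars. The vertical axes differ between panels and do not start at 0. *Dnah5*, *Cfap74*, *Cfap69*, *Ift122* and *Bbs7* have higher means in batches 4 and 6 than in batch 3, and *Klc1*, *Tubb2a*, *Tubb4b* and *Myl6* have lower ones.

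3 of the 7 kinesin genes differed over batches, *Klc1*, *Kif19* and *Kif24*. *Klc1* (ENSRNOG00000011572), the light chain that ties conventional kinesin to its cargo, had a lowest, median and highest value of 14.11, 14.23 and 14.31 in batch 2, 14.07, 14.29 and 14.43 in batch 3, 13.94, 14.08 and 14.22 in batch 4 and 13.95, 14.03 and 14.17 in batch 6. Batches 4 and 6 sat below batches 2 and 3, with overlap at the edges. Batch 4 differed from batch 3 by -0.19 (SE 0.02, 0.876-fold, adjusted p = 5.1e-11) and batch 6 from batch 2 by -0.18 (SE 0.03, adjusted p = 6.79e-07). The differences were small, and the SD within a batch was 0.06 to 0.09. With 5.8S as a covariate, batch 4 differed from batch 3 by -0.04, which did not pass. *Kif24*, which sits on centrioles and restrains cilium formation, had means of 3.27 ± 0.60 in batch 2 (n = 14), 3.57 ± 0.52 in batch 3 (n = 23), 4.06 ± 0.58 in batch 4 (n = 26) and 4.12 ± 0.55 in batch 6 (n = 16). It was 0.90 (SE 0.21, 1.86-fold, adjusted p = 0.000356) higher in batch 6 than in batch 2, at 2 to 44 adjusted counts per rat. *Kif19*, a kinesin that trims microtubules at the ciliary tip, was 0.48 (SE 0.12, adjusted p = 0.00121) higher in batch 6 than in batch 2, and *Kif7*, a ciliary regulator of Hedgehog signaling, was 0.21 (SE 0.08, adjusted p = 0.0221) higher in batch 6 than in batch 3. *Kif3b*, a subunit of the outward motor of intraflagellar transport, had the smallest SD of all 38 genes (0.07 over rats, range 10.61 to 11.01). *Kif3b*, *Kif17*, which carries a glutamate receptor subunit in dendrites, and the inward-moving *Kifc3* passed in no pair of batches.

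The tubulins that differed between batches were lower in batch 4 or 6. *Tubb2a* (ENSRNOG00000017558), a beta-tubulin abundant in neurons, had a lowest, median and highest value of 13.86, 14.11 and 14.31 in batch 2, 13.77, 14.22 and 14.43 in batch 3, 13.52, 13.84 and 14.19 in batch 4 and 13.51, 13.87 and 14.07 in batch 6. Batch 4 differed from batch 3 by -0.35 (SE 0.05, 0.783-fold, adjusted p = 8.09e-10), and the difference between batches 6 and 4 was 0.00 (SE 0.05, adjusted p = 0.976), with a 95% interval of -0.10 to 0.11. *Tubb4b* (ENSRNOG00000010170), a beta-tubulin of many cells that is also used in axonemes, had a lowest, median and highest value of 12.63, 13.02 and 13.24 in batch 3 and 12.53, 12.76 and 12.98 in batch 4, a difference of -0.22 (SE 0.04, adjusted p = 2.56e-06). The axoneme genes *Dnah5*, *Cfap74* and *Cfap69* thus had the opposite direction in the same pair of batches. *Dnal4* (-0.15) had the same direction as these tubulins, and the other axoneme genes did not pass. *Tuba8*, an alpha-tubulin of brain and muscle, was 0.17 (SE 0.06) lower in batch 4 than in batch 3 (adjusted p = 0.0244), and with 5.8S as a covariate its difference had the other sign and did not pass. In that fit the differences of *Tubb2a* and *Tubb4b* between batches 4 and 3 were -0.08 and -0.008, and neither passed. *Tubb6*, a beta-tubulin of low level in brain, ranged from 4.81 to 7.42 over all rats and was 0.58 (SE 0.20) lower in batch 6 than in batch 2 (adjusted p = 0.0165).

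In the gamma-tubulin complex, *Tubgcp5* was 0.18 (SE 0.04, adjusted p = 0.000277) higher in batch 4 than in batch 3, and *Tubgcp2* was 0.16 (SE 0.04, adjusted p = 0.00122) higher in batch 6 than in batch 2. *Tubgcp4* had batch means of 8.67 to 8.75 and passed in no pair. All of them encode ring proteins that hold gamma-tubulin in place for nucleation.

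Among the myosin genes, *Myl6*, the essential light chain of non-muscle and smooth muscle myosin, was the clearest. Its lowest, median and highest value was 12.23, 12.66 and 13.04 in batch 3 and 12.03, 12.40 and 12.67 in batch 4, a difference of -0.25 (SE 0.05, adjusted p = 2.65e-06). *Myh10*, the heavy chain of non-muscle myosin in neurons, moved by 0.08 (SE 0.03, adjusted p = 0.00719) in the other direction. *Myh4*, a heavy chain of fast skeletal muscle, was 0.37 (SE 0.09, adjusted p = 0.000574) lower in batch 4 than in batch 3, and *Myh3*, the embryonic skeletal heavy chain, 0.34 (SE 0.13, adjusted p = 0.0269) lower. None of the 10 sarcomere genes listed for comparison had a name in the table, so whether these reads came with other muscle transcripts could not be seen. *Myh7b*, a slow-type heavy chain, was 0.32 (SE 0.11) higher in batch 6 than in batch 3 (adjusted p = 0.00903), and *Myo1d*, a membrane-bound class I myosin, was 0.24 (SE 0.08) lower in batch 4 than in batch 2 (adjusted p = 0.0106). *Myo7a*, the myosin of sensory hair cells, and *Mylk*, the light chain kinase, passed in no pair. *Mylk* had batch means of 8.79 to 8.84.

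Of the genes taken in by the prefix alone, *Myof* (ENSRNOG00000016117), a ferlin that works in membrane fusion and repair, followed batch most closely. Its lowest, median and highest value was 7.06, 7.40 and 7.71 in batch 2, 6.88, 7.27 and 7.81 in batch 3, 6.98, 7.88 and 8.41 in batch 4 and 7.76, 8.09 and 8.35 in batch 6. All 16 rats of batch 6 lay above all 14 rats of batch 2, and *Myof* was the only one of the 38 genes without overlap in any pair of batches (0.632% of all genes did not overlap in that pair, 0.243% between batches 4 and 2, 0.0522% between batches 6 and 3 and 0 in the other pairs). The difference was 0.68 (SE 0.11, 1.60-fold, adjusted p = 4.36e-07), and *Myof* was still called in this pair with 5.8S as a covariate. *Myom3*, a protein of the muscle M-band, was 0.43 (SE 0.16) lower in batch 4 than in batch 3 (adjusted p = 0.0183). *Myoc*, a secreted glycoprotein best known from the eye, ranged from 0 to 4.25 and passed in no pair.

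Other genes of these pathways, from lists drawn up for the comparison, had a name in few cases: 5 of 49 motile cilium genes, 2 of 29 cilium transport genes, 1 of 27 neuronal cytoskeleton genes and 0 of 8 contractile genes. Over batches, 4 of the 5 motile cilium genes and both cilium transport genes passed, beside 59.4% of all genes, so passing was common in the table. *Rfx3*, a transcription factor of ciliated cells, rose from 7.43 ± 0.52 in batch 3 (n = 23) to 8.35 ± 0.22 in batch 4 (n = 26), a difference of 0.93 (SE 0.11, adjusted p = 4.93e-11). The batch 3 rats with 5.8S values of 2.00, 1.585, 3.46 and 5.67 had *Rfx3* values of 8.32, 8.33, 8.40 and 8.24. The other batch 3 rats had 5.8S values of 7.52 or more and *Rfx3* values of 7.89 or less. The part of 5.8S in this difference was not tested. *Ccdc39*, the ruler protein that spaces the inner dynein arms, was 0.37 (SE 0.07) and *Drc1*, a subunit of the dynein regulatory complex, 0.29 (SE 0.09) higher in batch 4 than in batch 3 (adjusted p = 3.03e-06 and 0.00634), and *Lrrc6*, which helps to assemble dynein arms, 0.30 (SE 0.10, adjusted p = 0.00897) higher. *Pifo*, which is also a marker of ependymal cells, had 1 to 23 adjusted counts per rat and did not pass over batches (adjusted p = 0.53). Of the cilium transport genes, the BBSome subunit *Ttc8* (adjusted p = 7.5e-06) and the transport protein *Wdr35* (adjusted p = 0.048) differed over batches, and *Stmn2*, a microtubule-destabilizing protein of growing axons, was 0.08 (SE 0.03) lower in batch 4 than in batch 3 (adjusted p = 0.0133).

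Markers of cells that carry motile cilia were near the bottom of the scale. Of 6 ependymal markers only *Pifo* had a name (values of 1.00 to 4.58), and of 7 choroid plexus markers only *Prlr* (1.00 to 4.75) and *Slc4a5* (1.00 to 4.39). Batch means of *Prlr* were 3.06, 2.75, 3.64 and 3.61 in batches 2, 3, 4 and 6, and it passed between batches 4 and 3 (0.88, SE 0.25, adjusted p = 0.0023), while those of *Slc4a5* were 2.75, 2.93, 3.17 and 3.22 and did not pass over batches (adjusted p = 0.28). *Rgs5*, a pericyte marker, had batch means of 8.45, 8.63, 8.74 and 8.86 (adjusted p over batches = 9.67e-06). *Dcn*, a marker of meningeal fibroblasts, had batch means of 7.72, 7.79, 7.91 and 8.04 (adjusted p = 0.055). *Vtn*, another pericyte marker, had batch means of 9.09, 9.22, 8.96 and 9.18 (adjusted p over batches = 0.00882) and was lower in batch 4 than in batch 3 by 0.26 (SE 0.07). Of the microglial genes, *C1qa* had batch means of 9.71, 9.85, 9.62 and 9.57 (adjusted p = 0.00406) and *P2ry12* 7.30, 7.50, 7.71 and 7.58 (adjusted p = 0.000269). Between batches 4 and 3 these 2 went in opposite directions, -0.23 (SE 0.06) for *C1qa* and 0.21 (SE 0.08) for *P2ry12*. The defining markers *Foxj1* and *Ttr* had no name here and no value is given for them. The part of such cells in the batch differences of the axoneme genes was not tested, and fewer cells of a type cannot be told apart from less RNA per cell.

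Rats of the same batch and sex also differed, and *Tubb2a*, *Dnah5* and *Mylk* were taken as reference genes to see which others rose and fell with each. A slope was fitted for each of the other 17249 genes with batch and sex as covariates. With *Tubb2a*, 21 of the other 37 genes had a slope that passed, 10 positive and 11 negative, beside 48.6% of all genes (23.8% positive and 24.9% negative), so such a slope was common in the table. All 3 other tubulins had a positive slope, with the limit that reads may have been split between tubulin genes. The cilia genes mostly had a negative one: 4 of 8 axoneme genes fell as *Tubb2a* rose (*Cfap74*, *Cfap69*, *Dnah5* and *Cfap157*) and 2 rose (*Dnal4* and *Tekt5*), while *Bbs7*, *Bbs12* and *Dync2li1* fell and no transport or BBSome gene rose.

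*Tubb4b* rose by 0.74 (SE 0.05) log2 units per log2 unit of *Tubb2a*. Reads may have been split between these near-identical genes, and the part of this in their relation was not tested. After batch and sex, Pearson's r was 0.852 and Spearman's rho 0.876 over 80 rats (both permutation p = 1e-05, a floor set by the number of 100000 permutations). Within batches 2, 3, 4 and 6, r was 0.789, 0.853, 0.887 and 0.896, and without the 2 rats farthest from the median of *Tubb2a* it was 0.845. *Klc1* rose by 0.32 (SE 0.04, r = 0.705, rho = 0.729, both permutation p = 1e-05), with r of 0.627 to 0.814 within batches. *Dnal4* rose by 0.54 (SE 0.08, r = 0.641, rho = 0.659, both permutation p = 1e-05), with r of 0.456 to 0.761 within batches. *Cfap74* fell as *Tubb2a* rose, by 1.42 per log2 unit of *Tubb2a* (SE 0.25, r = -0.556, rho = -0.585, both permutation p = 1e-05), with r of -0.667 to -0.371 within batches. *Cfap69* had a slope of -1.03 (SE 0.19, r = -0.528, rho = -0.497, both permutation p = 2e-05), with r of -0.684 to -0.336 within batches. Without the 2 farthest rats, r was 0.669 for *Klc1*, 0.622 for *Dnal4*, -0.568 for *Cfap74* and -0.490 for *Cfap69*. These 5 relations were picked from the 37 after the fit, and each had an adjusted p under 0.05 over all 17249 genes.

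**Figure D3:**
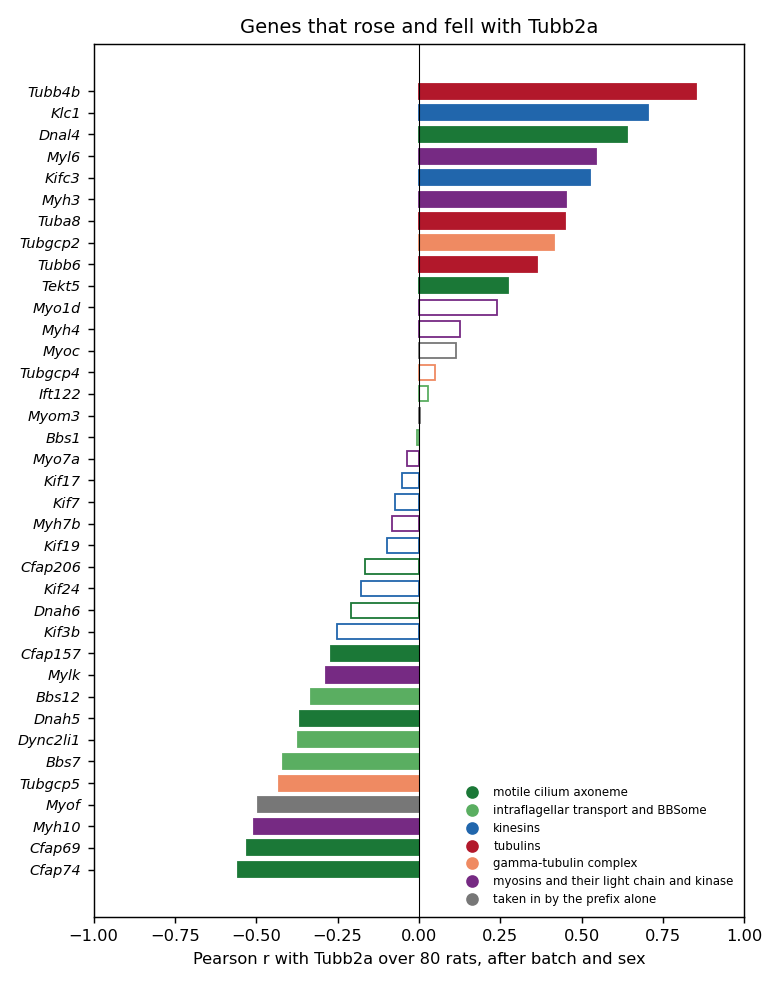
Pearson's r with *Tubb2a* over 80 rats, after batch and sex were removed, for the other 37 genes (bars, starting at 0). Filled bars have a slope with an adjusted p under 0.05 over all genes, and colors give the role. *Tubb4b*, *Klc1* and *Dnal4* are at the positive end and *Cfap74*, *Cfap69* and *Myh10* at the negative end.

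Markers of several cell types also had a slope on *Tubb2a*. With it, the microglial complement gene *C1qa* (slope 0.56, SE 0.15) and the pericyte marker *Vtn* (0.42, SE 0.18) rose, and *Neurod6* (-0.54, SE 0.10), *Dcn* (-0.73, SE 0.25) and *Rgs5* (-0.35, SE 0.14) fell. The other microglial gene, *P2ry12*, did not pass (0.10, SE 0.20, limma adjusted p = 0.70). Neither did *Vip*, *Prlr*, *Slc4a5*, *Pifo*, the astrocyte marker *Aldh1l1* or the blood gene *Hbb*. The markers of a cell type thus did not all move together. Among the other cilia genes *Ccdc39* (-0.95, SE 0.13, r = -0.638), *Rfx3* (-1.06, SE 0.25), *Drc1* (-0.78, SE 0.21) and *Wdr35* (-0.36, SE 0.09) fell. *Pifo*, *Lrrc6* and *Ttc8* did not pass. The part of cell composition in these slopes was not tested. With 5.8S as a covariate 17 of the 37 genes passed, 8 positive and 9 negative, beside 40.3% of all genes.

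With *Dnah5*, 8 of the other 37 genes passed, 3 positive and 5 negative, beside 20.3% of all genes (10.5% positive and 9.82% negative). *Dnah6*, the other axonemal heavy chain, rose by 0.38 (SE 0.14) per log2 unit of *Dnah5* (adjusted p = 0.0462). Pearson's r was 0.299 (permutation p = 0.00646) and rho 0.349 (permutation p = 0.00193) over 80 rats, 0.368 without the 2 farthest rats, and -0.094, 0.335, 0.291 and 0.563 within batches 2, 3, 4 and 6. The relation was thus not seen in the 14 rats of batch 2, and the difference between batches was not tested. *Myh10* (slope 0.06, SE 0.02) and *Myof* (0.20, SE 0.06) also rose. *Tubb4b* (-0.11, SE 0.03), *Tuba8* (-0.16, SE 0.04), *Tubb2a* (-0.11, SE 0.03), *Klc1* (-0.05, SE 0.02) and *Dnal4* (-0.07, SE 0.03) fell. *Cfap69* (0.14, SE 0.06, adjusted p = 0.108) and *Cfap74* (0.17, SE 0.08, adjusted p = 0.151) missed the threshold, as did each of the 5 transport and BBSome genes. Outside the 38, *Rfx3* (0.32, SE 0.07, adjusted p = 0.000863) and *Drc1* (0.19, SE 0.06, adjusted p = 0.0311) rose with *Dnah5*. The batch covariate does not separate the low and high 5.8S rats within batch 3. The low 5.8S rats given with *Rfx3* above had *Dnah5* values of 5.13, 4.95, 4.25 and 4.52, beside a batch 3 mean of 4.20. The part of 5.8S in these 2 slopes was not tested. The other named cilia genes, *Ccdc39* (0.11, SE 0.05, adjusted p = 0.110), *Pifo*, *Lrrc6*, *Ttc8* and *Wdr35*, did not pass. When *Tubb2a* was added as a covariate, 1 of the genes passed (*Bbs7*, slope -0.10, SE 0.03), beside 3.82% of all genes, and *Dnah6* did not. With 5.8S as a covariate 3 passed, beside 8.24% of all genes.

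With *Mylk*, limma called 0 of the other 37 genes, with 5 at an unadjusted p under 0.05 (*Myo7a*, *Tubb2a*, *Tubb4b*, *Myh3* and *Cfap206*), and 35 of 17249 genes (0.203%). The pericyte marker *Rgs5* was among those 35, with a slope of 0.46 (SE 0.11, r = 0.446, adjusted p = 0.0315). The pericyte marker *Vtn* was not (0.33, SE 0.15, adjusted p = 0.476). Smooth muscle genes that act beside *Mylk*, such as *Myh11* and *Acta2*, had no name here.

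The labelled sexes were compared next. By limma, with batch in the fit, 0 of the 38 genes differed between males and females, where 63 of all 17250 genes did (0.365%). At an unadjusted p under 0.05 there were 2 of the 38, against 7.82% of all genes, and both were higher in males. *Mylk* had a lowest, median and highest value of 8.28, 8.87 and 9.26 in 40 males and 8.36, 8.70 and 9.12 in 40 females. The sexes overlapped over almost their whole range, and the difference was 0.15 (SE 0.04, 1.11-fold, adjusted p = 0.131). It was 0.04, 0.11, 0.16 and 0.25 in batches 2, 3, 4 and 6. With 20 principal components of the table in place of batch, the difference was -0.51 (SE 0.22, limma adjusted p = 0.520). These components were taken from all genes, so they can take up part of the sex difference. The SE rose from 0.04 to 0.22, and the direction cannot be read from that fit. Over the alternatives the adjusted p ran from 0.0947 to 0.520. *Tubgcp5* had 8.85, 9.16 and 9.71 in males and 8.64, 9.10 and 9.40 in females, with a difference of 0.12 (SE 0.04, adjusted p = 0.144) that was 0.20, 0.10, 0.11 and 0.12 in those batches. The pericyte marker *Vtn* was 0.30 (SE 0.06) higher in males (adjusted p = 0.00225) and *Rgs5* was not (0.02, SE 0.05, adjusted p = 0.965). Whether the difference between the sexes changed with batch was tested as an interaction, which limma called in 0 of the 38 genes and 0 of all genes. At an unadjusted p under 0.05 the interaction had 1 of the 38 (*Myom3*, p = 0.028) and 410 of all genes (2.38%).

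**Figure D4:**
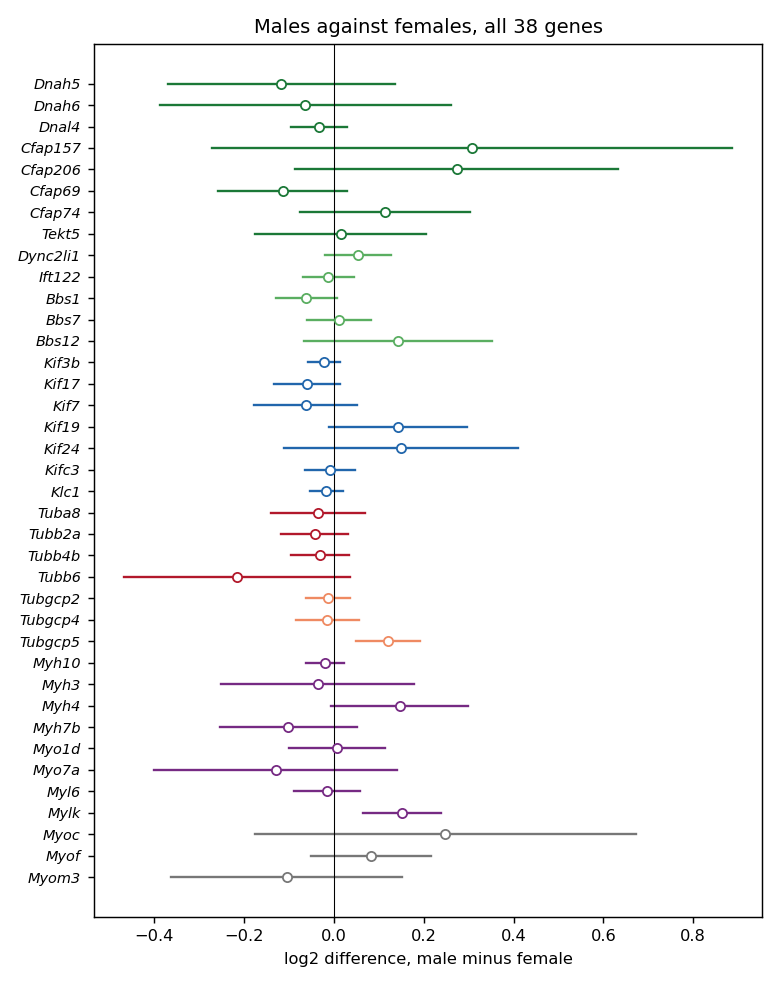
Difference in log2(adjusted count + 1) between males and females (male minus female) for each of the 38 genes, with batch in the fit. Points are open because no gene passed the adjusted threshold, and lines give the 95% confidence interval. The intervals of *Mylk* and *Tubgcp5* lie wholly above 0, and those of the other 36 include 0.

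Separate high and low rats were looked for in each gene. A gene was to be called as having separate high and low rats when a mixture of 2 normal distributions lowered the Bayesian information criterion by more than 10, the means were separated by over 4 component SDs and by no less than 1 log2 unit, and the smaller group held 10% of rats or more. This held for 0 of the 38 genes and for 2.45% of all genes. The criterion was lower with 2 components in 4 of the 38, by 0.028 in *Cfap74*, 0.131 in *Tubb6*, 1.11 in *Klc1* and 2.01 in *Myh3*. In *Myh3* the smaller component held 1.45% of rats. The lowest rat had 3.00, at 7 adjusted counts, beside a median of 5.07.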

How the data were processed

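Poly(A) RNA of PL was sequenced as single-end reads. Before deposit the authors removed adapters and poor bases (cutadapt), took gene counts from RSEM on the Ensembl rat transcriptome, scaled each library to its upper quartile (DESeq2), dropped 6 of 86 PL samples and weakly read genes, and put the counts on a log2 scale with a pseudocount of 1. Build Rnor_6.0 is named per the labels. Rounded, adjusted counts fit no count model, so none was run, and the raw depth of each library is unknown from these values. The scaling hides differences in total RNA.

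From the deposited log2 values, limma 3.58.1 in R 4.3.3 (lmFit, eBayes with a variance trend) was fitted over all 17250 genes in 80 rats, with Benjamini-Hochberg adjustment and a threshold of 0.05. Sex was tested with batch as a factor, batch with sex as a covariate (F-test and 6 pairs of batches 2, 3, 4 and 6), and slopes on *Tubb2a*, *Dnah5* and *Mylk* with both. Batch 5, a single rat, entered the fits but no pair. Residual correlations used 100000 two-sided permutations. Scripts were tested on simulated data. Every gene the rule takes in is named, with other pathway genes and cell markers from written lists, by symbol. The members, lists and tests were chosen with earlier results of these data known. Rats are separate animals, chosen by the study with the aim of avoiding relatives, and their relatedness was not analysed here. Promoters came from RefSeq (GRCr8). Other computations used Python 3.11.15, numpy 2.4.6, scipy 1.17.1 and pandas 2.3.3.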

Additional observations from a re-analysis of the deposited data

How the results depend on the processing

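Alternatives for pseudocount, filter, scaling, transformation and covariates left 67 of 71 recomputed counts within 1.5 times the reported count, and all 58 recomputed results for single genes on their side of the threshold. The other 4 were the genes called for sex, 63 in the report, which were 38 without batch as a covariate and 11 with 20 principal components in its place, the genes among the 38 called between batches 3 and 2, 1 instead of 0 when only genes with a mean of at least 5 were tested, and the genes tracking *Dnah5*, 21 instead of 8 without covariates (54.1% of all genes). Among the 38, the counts for sex, the interaction, slopes on *Mylk* and separate high and low rats were 0 in every setting. *Mylk* and *Tubgcp5* for sex, among the single-gene results, passed in no setting. Such results had little room to move and say little about stability. A covariate for 5.8S ribosomal RNA was chosen after seeing the data. With it, 2632 genes and 7 of the 38 differed over batches. Between batches it called 4 of the 38 for 3 against 2 (11.1% of all genes), 4 for 6 against 2 (7.86%), 4 for 6 against 3 (4.27%) and 3 for 6 against 4 (6.99%). It called 0 both for 4 against 2 (1.08% of all genes) and for 4 against 3 (0.0058%) by limma, with 6 and 8 at an unadjusted p under 0.05. It left 3 genes tracking *Dnah5* (8.24% of all genes), and *Tubb2a* as a covariate, also chosen afterwards, left 1 (3.82% of all genes). None of the 19 single-gene differences between batches 4 and 3 passed with 5.8S in the fit, and that of *Tuba8* changed sign, to 0.068. Those of *Bbs12* (0.58), *Ift122* (0.13) and *Myom3* (-0.54) were larger in size than without it. All the rest were smaller in size, among them *Dnah5* (0.61), *Klc1* (-0.04), *Tubb2a* (-0.08), *Tubb4b* (-0.008) and *Myh10* (0.003). *Mylk*, which passed in neither fit, changed sign for sex with 20 principal components in place of batch (-0.51, SE 0.22, beside an SE of 0.04 with batch). Because the components were taken from all genes and can take up part of the sex difference, that sign cannot be read as a direction.

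No paired analysis was possible because the sexes and batches compared consist of different rats. Means under 5 limit the precision for 7 genes.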
